A study of Homo sapiens with 34 samples.

Results

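The genes described here are 8 of the 19970 protein-coding genes of the GENCODE release 44 annotation of hg38 that were measured: ST3GAL5, ST8SIA1 and B4GALNT1, which build the ganglioside GD2, and GPC2, L1CAM, NCAM1, CD276 and DLL3, which encode other surface proteins pursued as targets in neuroblastoma. They were chosen by name, with earlier results of these data known. The study used KELLY, a cell line grown from a human neuroblastoma whose MYCN gene is amplified, in which doxycycline switches on a short hairpin RNA that targets RUNX1T1, a transcriptional co-repressor. Cells received DMSO, the solvent control, or Doxycycline for 72 h, so every sample carried the hairpin construct and the groups differed in its induction. Chromatin immunoprecipitation followed by sequencing (ChIP-seq) of 5 histone marks had been made in 3 libraries per mark and treatment, giving 30 peak lists, and 4 of the 34 samples were inputs. No control that received Doxycycline without a hairpin against RUNX1T1 was among these samples, and neither the labels nor the methods say which hairpin was used for these libraries or whether the cells were 1 clone.

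GD2 is a disialoganglioside, a sugar-bearing lipid of the outer cell membrane that neuroblastoma cells carry at high density and that therapeutic antibodies recognise. ST3GAL5 makes GM3 from lactosylceramide, ST8SIA1 adds a further sialic acid to give GD3, and B4GALNT1 turns GD3 into GD2. At an active promoter H3K4me3 and H3K27ac cover the start site, H3K4me1 lies around it or marks enhancers, H3K4me2 spans both, and H3K27me3 is laid down by Polycomb at silent genes. A promoter that holds H3K4me3 together with H3K27me3 is called bivalent.

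Each list was called on its own library, and calling depth was taken as the smaller of the ChIP and input read totals. It was 57.0 to 63.4 M reads for Doxycycline libraries and 71.9 to 81.1 M reads for DMSO libraries, with no overlap. The ChIP reads alone overlapped, at 57.1 to 84.6 M in Doxycycline and 71.9 to 85.2 M in DMSO. The input reads did not, at 57.0 to 63.4 M and 74.5 to 81.5 M. Calling depth, and with it input depth, therefore cannot be told apart from treatment in any comparison below. In H3K27me3 the peak caller's fragment length estimate was 105 to 112 bp in DMSO 2, DMSO 3 and Doxycycline 3 and 256 to 280 bp in the other 3 libraries, and the lists held between 59338 and 161754 peaks. As a check of the labelled cell type, 8 of 8 markers of adrenergic neuroblastoma had promoter H3K4me3 and H3K27ac in all 6 libraries and 0 of 8 had H3K27me3. Of these markers, HAND2, a transcription factor of the sympathetic lineage, had an H3K4me2 promoter peak in 0 DMSO and 3 Doxycycline libraries. HAND2 was named because of this call, and 0.03% of all genes gained or lost an H3K4me2 promoter peak. Ranked by fold enrichment within their own lists, the 3 HAND2 peaks lay at percentiles of 9.999 to 74.81, with a median of 28.25. H3K27ac was found in all 6 libraries at the promoters of 0 of 4 blood, 0 of 2 endothelial, 0 of 4 fibroblast and 1 of 3 epithelial markers. The measures below were the presence of a peak within 1 kb of any annotated start site, the percentile of that peak's fold enrichment over input within its own list, the summed width of the peaks touching that window, and the length of the gene body and of the 50 kb on either side covered by peaks. The genes had 1 to 10 separate start-site windows each. Widths were summed and the strongest peak was ranked over all of them, so values can rest on peaks away from the canonical start.

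The sequences below lie just before the RefSeq starts of these genes and are shown for their base composition and motif matches; none includes the start itself. RefSeq windows of 300 bp (GRCh38.p14, 250 bp before to 50 bp after the start) were matched for 5 of the 8 genes, ST3GAL5, ST8SIA1, GPC2, L1CAM and CD276, and the stretches outside untranslated exons are printed. Capitals mark a match to one of 6 motifs searched on both strands: CACGTG (E-box), CATCTG (E-box), CAGCTG (E-box), CAGGTG (E-box), TGTGGT (RUNX) and a paired homeodomain motif with TAAT on both strands.
ST3GAL5 promoter (chr2:85889038-85889240, minus strand): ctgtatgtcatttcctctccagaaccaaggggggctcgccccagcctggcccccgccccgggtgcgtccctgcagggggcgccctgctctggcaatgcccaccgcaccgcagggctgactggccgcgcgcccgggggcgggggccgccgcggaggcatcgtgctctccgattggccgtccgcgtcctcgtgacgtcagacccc
ST8SIA1 promoter (chr12:22334715-22334957, minus strand): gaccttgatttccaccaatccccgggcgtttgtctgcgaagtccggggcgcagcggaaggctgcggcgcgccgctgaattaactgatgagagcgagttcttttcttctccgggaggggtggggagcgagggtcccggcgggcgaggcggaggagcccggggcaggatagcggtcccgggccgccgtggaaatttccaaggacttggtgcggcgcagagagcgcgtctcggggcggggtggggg
GPC2 promoter (chr7:100177382-100177562, minus strand): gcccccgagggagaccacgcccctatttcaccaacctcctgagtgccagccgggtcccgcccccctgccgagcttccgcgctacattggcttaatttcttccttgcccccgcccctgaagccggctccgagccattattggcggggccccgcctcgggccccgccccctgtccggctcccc
L1CAM promoter (chrX:153876040-153876113, minus strand): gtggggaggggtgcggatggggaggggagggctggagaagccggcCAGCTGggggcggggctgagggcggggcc
CD276 promoter (chr15:73684133-73684268, plus strand): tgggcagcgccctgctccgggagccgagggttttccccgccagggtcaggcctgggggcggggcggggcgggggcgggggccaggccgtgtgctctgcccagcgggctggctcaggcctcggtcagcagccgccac

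The windows of ST3GAL5, ST8SIA1 and CD276 held 36, 35 and 37 CpG dinucleotides and that of GPC2 held 24, beside a median of 23 over 15315 promoters. The L1CAM window held 8, and its RefSeq start lay 10159 bp from the start site that GENCODE calls canonical. Over the full 300 bp, L1CAM held 2 matches of CAGCTG, which 17.7% of all promoters hold, and 1 of CATCTG, which 10.7% hold. ST3GAL5 held 1 match of each, and GPC2 1 match of CATCTG. ST8SIA1 and CD276 held none of the 6 motifs. CACGTG, held by 8.85% of promoters, CAGGTG by 19.6%, TGTGGT by 10.6% and the paired homeodomain motif by 0.189% were found in none of the 5 windows. A match describes letters in the window and not a bound site.

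The promoters of these genes carried the marks of active genes, and ST8SIA1 stood apart. H3K4me2 and H3K4me3 peaks were present at 8 of 8 genes in all 6 libraries, where 71.8% and 71.9% of all protein-coding genes had them. H3K4me1 was present in all 6 libraries at 7 of 8 genes (61.4% of all genes), the exception being ST3GAL5, which had no peak in Doxycycline 2. H3K27ac was present in all 6 at 7 of 8 genes (64.2% of all genes), the exception being ST8SIA1. H3K27me3 was present in all 6 at 1 of 8 genes, again ST8SIA1, beside 20.1% of all genes, and 6 of the 8 had no H3K27me3 promoter peak in any library.

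**Figure D1:**
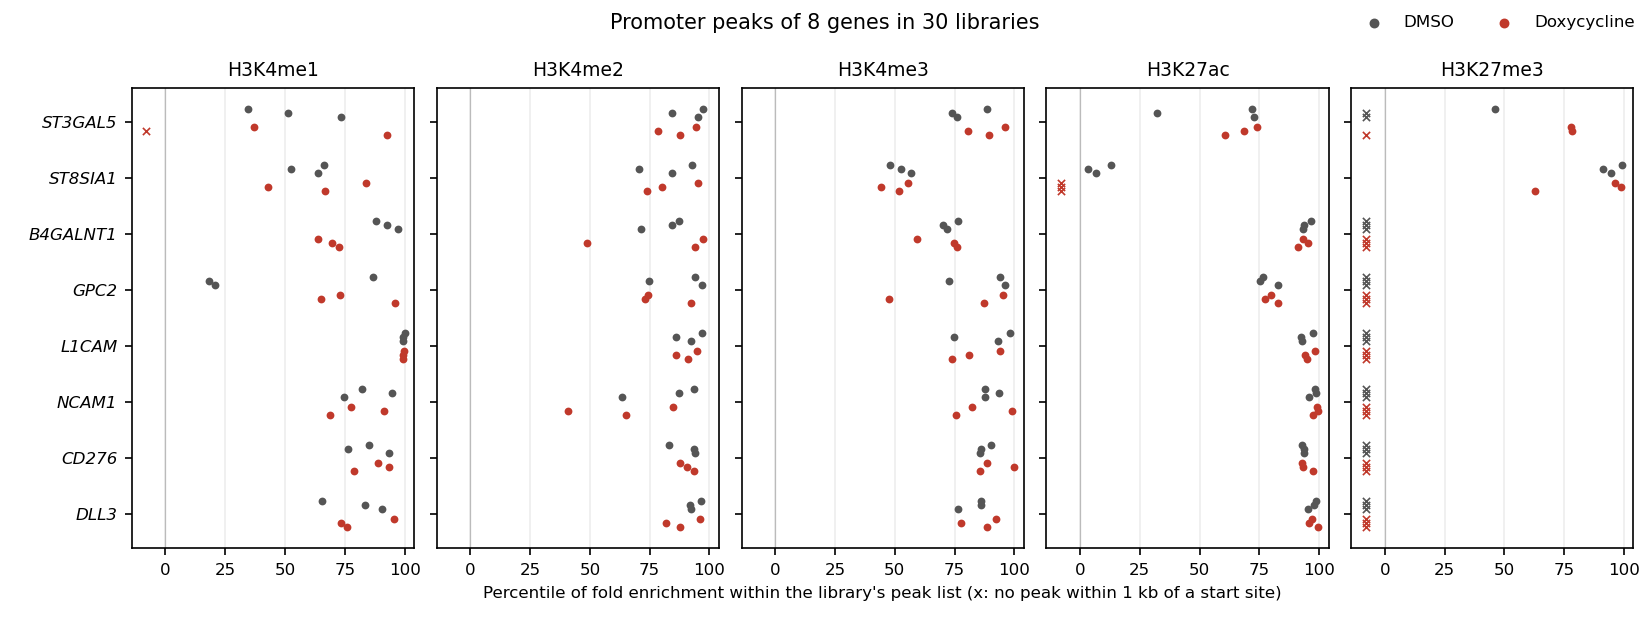
Percentile of the promoter peak's fold enrichment within its own list (x axis, 0 to 100) for 8 genes (y axis) in 5 marks, with 1 point per library, grey for DMSO and red for Doxycycline, and a cross where no peak lay within 1 kb of a start site. ST8SIA1 is the gene with H3K27me3 points in all 6 libraries and with H3K27ac crosses in all 3 Doxycycline libraries.

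ST3GAL5 (ENSG00000115525.18, chr2:85837120-85905199, minus strand) makes GM3, the common precursor of the more complex gangliosides. Its H3K4me3 peak was 2.075, 2.105 and 1.815 kb wide in DMSO and 2.31, 2.41 and 2.09 kb in Doxycycline, and the groups overlapped. All 3 differences between same-numbered libraries were higher in Doxycycline, and limma with a replicate block gave an adjusted p of 0.212. Its H3K27ac peak was short, 0.908, 0.931 and 0.297 kb in DMSO and 0.941, 0.589 and 0.572 kb in Doxycycline. The H3K27ac percentile was 72.0, 32.1 and 72.6 in DMSO and 73.9, 68.7 and 60.5 in Doxycycline, so DMSO 2 was the low library. An H3K27me3 promoter peak was present in DMSO 1, Doxycycline 1 and Doxycycline 2 at percentiles of 46.3, 77.9 and 78.2. These are the 3 libraries with the longer fragment length estimates, and the part of that estimate in the result was not tested. No protein-coding gene started within 50 kb of ST3GAL5.

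ST8SIA1 (ENSG00000111728.11, chr12:22063773-22437041, minus strand) encodes GD3 synthase, with its start site at 22334707. Peaks of both H3K4me3 and H3K27me3 lay at this start region in both treatments, a bivalent pattern. The stretch under H3K27me3 in all 6 libraries ran from 0.031 to 1.704 kb after the start. Separate lists cannot show whether both marks lay on the same DNA molecules. The H3K27me3 percentile was 99.0, 91.4 and 94.6 in DMSO and 96.2, 98.7 and 62.9 in Doxycycline, so 5 of 6 libraries lay above 90 and Doxycycline 3 was the low one. The 62.9 belonged to another peak near an annotated start, and the Doxycycline 3 peak over this start region had a percentile of 57.4. The H3K4me3 percentile was 48.2, 52.8 and 56.6 in DMSO and 55.7, 44.5 and 51.8 in Doxycycline. Both ranges overlapped between treatments. The H3K27me3 percentile was 96.2 to 99.0 in the 3 libraries with the longer fragment length estimates and 62.9 to 94.6 in the others, and the part of that estimate was not tested. The H3K4me3 percentiles of ST8SIA1, 44.5 to 56.6, were below those of the other 7 genes in 6 of 6 libraries.

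H3K27ac at the ST8SIA1 start site was weak and was called in DMSO alone. Peaks of 1.53, 0.325 and 0.605 kb were present in DMSO 1, 2 and 3 and none in the 3 Doxycycline libraries, which made ST8SIA1 the 1 gene of 8 that lost a mark, where 0.22% of all genes lost H3K27ac and 0.11% gained it. The DMSO peaks had fold enrichments of 2.07, 1.93 and 1.99 and lay at percentiles of 13.1, 3.31 and 6.58 of their lists. The peaks of DMSO 2 and DMSO 3 shared 0 bp, so no base was called in all 3 DMSO libraries. Their −log10 q-values were 2.83, 1.35 and 1.91, and with a minimum of 3 no library of either treatment held the peak. The H3K27ac-covered length of the gene body was 1.53, 0.880 and 0.605 kb in DMSO and 0 in all 3 Doxycycline libraries.

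**Figure D2:**
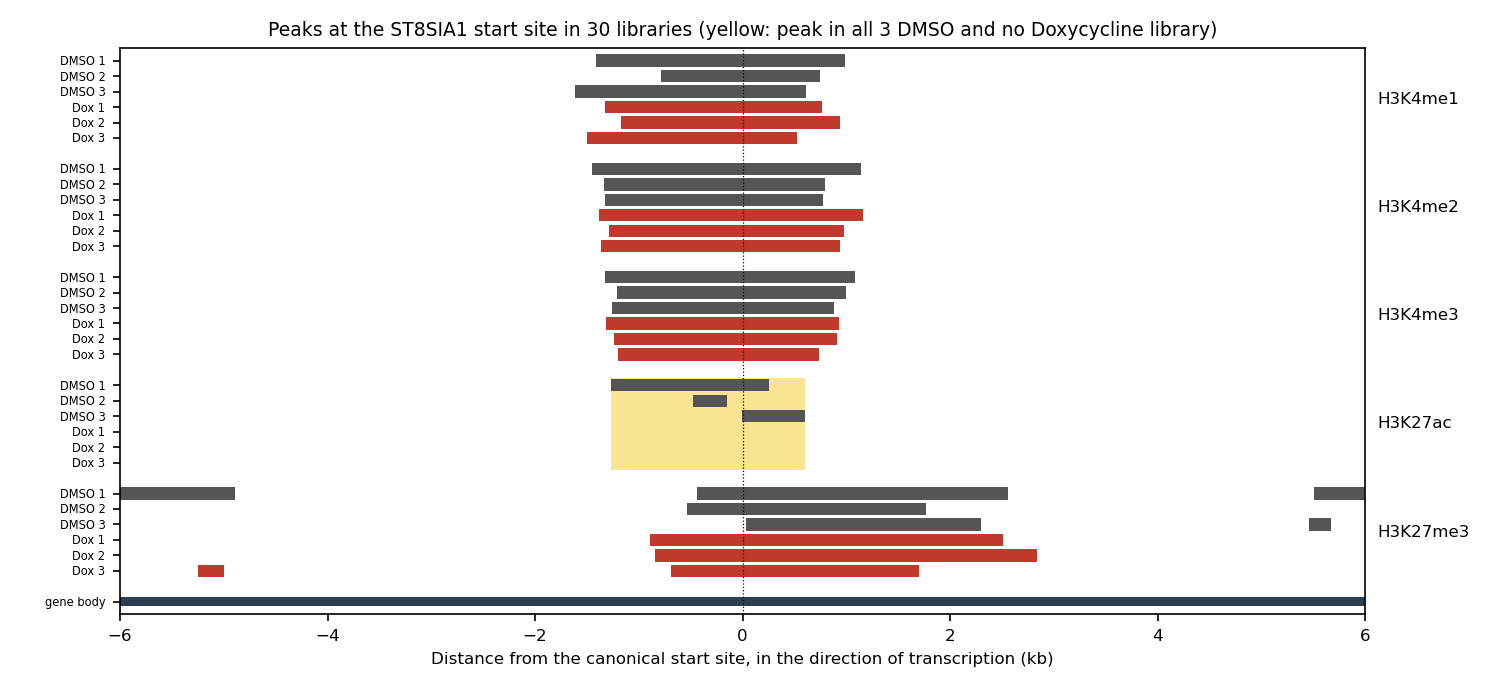
Peaks of 30 libraries (rows, grouped by mark, grey DMSO and red Doxycycline) by distance in kb from the canonical ST8SIA1 start site, with the gene body at the bottom and the separating H3K27ac region in yellow. H3K4me1, H3K4me2 and H3K4me3 peaks span the start site in all 6 libraries, H3K27me3 peaks lie at or just downstream of it, and H3K27ac is limited to short DMSO peaks of 1.53, 0.325 and 0.605 kb.

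B4GALNT1 (ENSG00000135454.14, chr12:57623409-57633239, minus strand) encodes the synthase that makes GD2 from GD3. Its H3K4me1 promoter peak ranked lower in Doxycycline, at percentiles of 63.8, 69.4 and 72.7 against 88.0, 92.6 and 97.3 in DMSO. The means were 68.6 ± 4.53 and 92.7 ± 4.62 (SD, n = 3 each), and the groups did not overlap. The difference of −24.0 percentile points had an exact two-sided permutation p of 0.1, the smallest that 20 assignments allow, and a Benjamini-Hochberg adjusted p of 0.700. Of all genes tested, 7.35% were lower without overlap in this measure. The lists differed in length, with 102186 to 147426 H3K4me1 peaks in DMSO and 88001 to 127275 in Doxycycline, and with lists of equal length the difference was −27.8. The fold enrichments themselves were 3.58, 3.30 and 3.13 in DMSO and 2.99, 2.92 and 2.84 in Doxycycline, at calling depths that differed in the same direction. The H3K4me1 width was 1.89, 1.65 and 1.51 kb in DMSO and 1.85, 1.39 and 1.28 kb in Doxycycline and overlapped.

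The other active marks of B4GALNT1 overlapped between treatments. Its H3K27ac percentile was 96.7, 93.7 and 93.3 in DMSO and 93.4, 95.6 and 91.3 in Doxycycline, among the higher peaks of every list. Its H3K4me3 peak was 2.72, 2.70 and 2.33 kb wide in DMSO and 2.69, 2.69 and 2.37 kb in Doxycycline. No H3K27me3 lay in the gene body, while the 50 kb flanks held 30.4, 9.003 and 5.98 kb in DMSO and 38.4, 29.7 and 12.6 kb in Doxycycline. The 3 libraries with the longer fragment length estimates held 29.7 to 38.4 kb and the others 5.98 to 12.6 kb, and the part of that estimate was not tested. The 4 protein-coding genes that start within 50 kb, PIP4K2C, DTX3, ARHGEF25 and ENSG00000287908, had promoter H3K27me3 in 0 of 6 libraries.

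GPC2 (ENSG00000213420.8, chr7:100169606-100177381, minus strand) encodes glypican-2, a heparan sulphate proteoglycan of the developing nervous system. Its start site lies 182 bp from that of STAG3, a cohesin subunit gene read in the other direction, so peaks at this promoter cannot be assigned to either gene. The H3K27ac percentile was even, 76.4, 75.4 and 82.8 in DMSO and 79.7, 77.4 and 82.9 in Doxycycline. The H3K4me1 percentile spread widely, 87.0, 18.4 and 20.6 in DMSO and 72.9, 65.0 and 95.8 in Doxycycline, and DMSO 1 fell within the Doxycycline range. The H3K4me3 peak was narrow, 1.38, 1.46 and 1.34 kb in DMSO and 1.43, 1.80 and 1.32 kb in Doxycycline.

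L1CAM (ENSG00000198910.14, chrX:153861514-153886173, minus strand) encodes a neural cell adhesion molecule of the immunoglobulin superfamily and lay under an acetylated domain that spanned most of the gene. Its longest H3K27ac promoter peak measured 16.5 to 19.2 kb and was longer than 99.1% to 99.7% of its list. ENSG00000284987, another annotated protein-coding gene, overlaps the stretch acetylated in every library, so that stretch cannot be assigned to L1CAM alone. The promoter H3K27ac width was 19.1, 17.4 and 18.8 kb in DMSO and 23.5, 23.1 and 20.2 kb in Doxycycline, so every Doxycycline library was wider. The log2 difference was 0.27, with an exact permutation p of 0.1, an adjusted p of 0.785 and 6% of genes higher without overlap. H3K27ac covered 18.43, 16.30 and 18.02 kb of the 24.7 kb gene body in DMSO and 21.6, 22.5 and 19.7 kb in Doxycycline. That log2 difference was also 0.27 (exact permutation p = 0.1, adjusted p = 0.625), where 5.66% of genes were higher without overlap.

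H3K4me1 covered 15.9, 16.5 and 15.3 kb of the L1CAM body in DMSO and 18.3, 17.7 and 17.3 kb in Doxycycline. The groups did not overlap (log2 difference 0.16, exact permutation p = 0.1, adjusted p = 0.916), and 3.87% of genes were higher in this way. Its H3K4me1 promoter peak lay at or above the 99.1 percentile of every list. No H3K27me3 peak of any library lay in the gene or within 50 kb of it. The H3K4me3 width of 4.92, 4.81 and 4.31 kb in DMSO and 7.67, 7.51 and 4.67 kb in Doxycycline overlapped, Doxycycline 3 being the narrow one. All 3 same-numbered differences were higher in Doxycycline, with an adjusted p of 0.252 in limma with a replicate block.

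**Figure D3:**
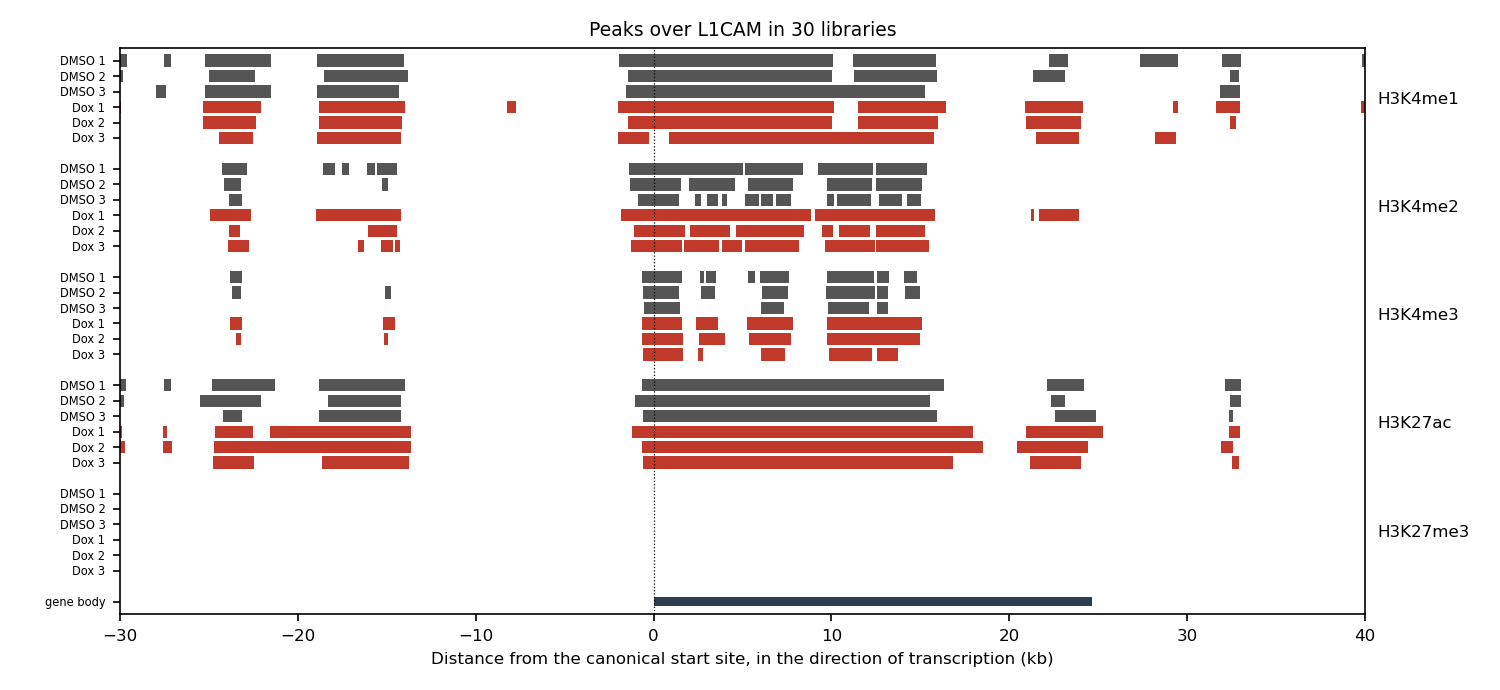
Peaks of 30 libraries (rows, grouped by mark, grey DMSO and red Doxycycline) by distance in kb from the canonical L1CAM start site, with the gene body at the bottom. The H3K27ac peak over the gene is 16.5 to 19.2 kb long in the 6 libraries, H3K4me3 is split into separate peaks along the gene, and the H3K27me3 rows are empty.

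NCAM1 (ENSG00000149294.18, chr11:112961275-113278436, plus strand), the neural cell adhesion molecule CD56, carried active marks at many places in its 317.2 kb body. Over the 6 libraries H3K27ac covered 25.02% to 30.04% of the body and H3K4me1 28.2% to 40.8%. H3K27ac covered 95.3, 85.0 and 83.1 kb of it in DMSO and 90.9, 94.8 and 79.4 kb in Doxycycline, and H3K4me1 covered 129.3, 95.0 and 98.9 kb against 110.1, 89.5 and 96.2 kb. Both overlapped. Segments under H3K27ac in all 6 libraries numbered 17 and summed to 47.8 kb, and those under H3K4me1 numbered 35 and summed to 59.9 kb. NCAM1 has 25 annotated start sites in 9 separate windows, and its promoter width sums the peaks touching any of them. This summed H3K27ac width was 11.3, 12.2 and 7.56 kb in DMSO and 20.4, 34.2 and 10.7 kb in Doxycycline. The longest single peak counted measured 3.995 to 23.41 kb over the 6 libraries. At the canonical start the stretch under a peak in all 6 was 2.975 kb. The highest values were both in Doxycycline, but Doxycycline 3 lay within the DMSO range.

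Of the 6 regions that separated the treatments in these loci, 5 lay at NCAM1. A separating region was a merged interval with a peak in all 3 libraries of a treatment and in none of the other. The NCAM1 locus held 44 merged H3K27ac regions, of which 1 was lost and 1 gained, beside 2.7% and 0.6% of all such regions. Of its 50 H3K4me1 regions 2 were lost (1.45% of all), and of its 10 H3K4me3 regions 1 was lost (0.893%). H3K27ac at chr11:113220165-113224694, 258.7 to 263.3 kb after the start site and over annotated exon sequence, was present in DMSO alone, with best fold enrichments of 3.51, 2.97 and 2.44. H3K4me1 at chr11:113221643-113224052, inside it, was also lost, with covered lengths of 2221, 1572 and 566 bp in DMSO. The third lost region, H3K4me3 at chr11:113172816-113173484, kept H3K4me1, H3K4me2 and H3K27ac in 6 of 6 libraries. Its H3K4me3 peaks in DMSO lay at percentiles of only 7.99 to 16.3.

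The other lost H3K4me1 region, chr11:112927765-112930086, lay 31.3 to 33.7 kb before the start site, outside any gene, at fold enrichments of 2.112, 2.097 and 2.123. The −log10 q-values of its peaks were 1.53 to 1.77. H3K27ac at chr11:113044835-113048106, in an intron 83.4 to 86.7 kb after the start, was present in Doxycycline alone. Its peaks covered 1590, 3204 and 226 bp in Doxycycline 1, 2 and 3, and H3K4me1 was present there in 2 DMSO and 3 Doxycycline libraries. These H3K27ac peaks were weak, at fold enrichments of 2.34 to 2.64 and percentiles of 17.8 to 42.7. Their −log10 q-values of 1.97 to 2.80 lay under the minimum of 3 used for ST8SIA1. The middle 300 bp of this gained region and of the lost H3K27ac region are printed, with a motif match in capitals. They are the NCAM1 regions whose H3K27ac calls separated the treatments.
NCAM1 gained region (chr11:113046320-113046619, plus strand): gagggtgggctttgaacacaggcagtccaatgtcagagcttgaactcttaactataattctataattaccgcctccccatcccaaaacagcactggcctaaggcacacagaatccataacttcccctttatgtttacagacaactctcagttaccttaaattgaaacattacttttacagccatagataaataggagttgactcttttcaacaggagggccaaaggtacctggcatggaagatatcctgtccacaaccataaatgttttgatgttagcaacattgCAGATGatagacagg
NCAM1 lost region (chr11:113222279-113222578, plus strand): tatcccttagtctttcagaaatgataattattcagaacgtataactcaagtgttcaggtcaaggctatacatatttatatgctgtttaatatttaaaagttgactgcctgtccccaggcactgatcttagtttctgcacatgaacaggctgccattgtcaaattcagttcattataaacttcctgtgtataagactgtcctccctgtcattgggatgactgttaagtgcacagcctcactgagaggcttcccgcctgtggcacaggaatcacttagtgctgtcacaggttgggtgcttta

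The gained stretch held 1 match of CATCTG, read as CAGATG, and 1 CpG, and the lost stretch held none of the 6 motifs and 2 CpG. CATCTG occurred in 21.8% of the 100382 merged H3K27ac regions cut to the same length.

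**Figure D4:**
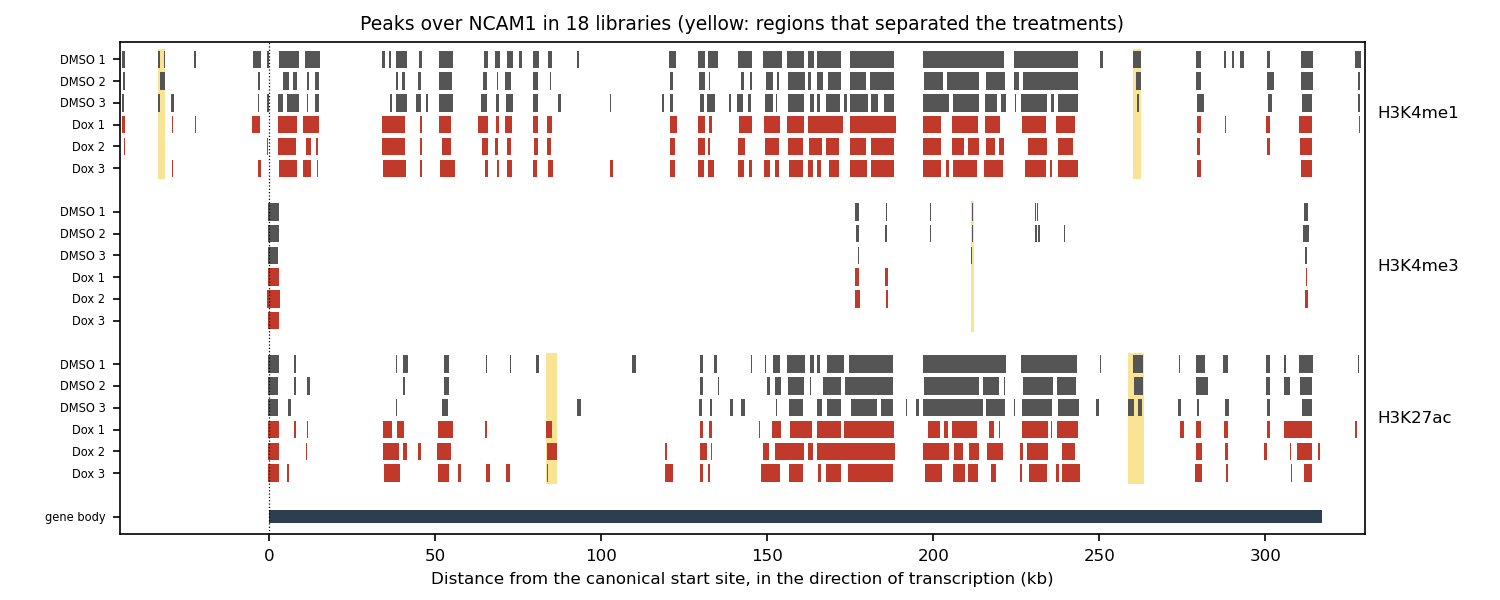
Peaks of H3K4me1, H3K4me3 and H3K27ac in 18 libraries (rows, grey DMSO and red Doxycycline) by distance in kb from the canonical NCAM1 start site, with the gene body at the bottom and separating regions in yellow. The lost H3K27ac and H3K4me1 regions coincide near 260 kb, and the gained H3K27ac region lies at 83.4 to 86.7 kb.

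CD276 (ENSG00000103855.18, chr15:73683966-73714514, plus strand) encodes B7-H3, an immune checkpoint protein of the B7 family. Its promoter peaks were high and even: the H3K27ac percentile was 92.9, 93.6 and 93.7 in DMSO and 92.9, 93.2 and 97.6 in Doxycycline. H3K27ac covered 11.9, 10.4 and 5.79 kb of the body in DMSO and 12.2, 7.71 and 8.002 kb in Doxycycline. The groups overlapped for every mark and measure of CD276.

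DLL3 (ENSG00000090932.11, chr19:39498895-39508481, plus strand) encodes an inhibitory Notch ligand. Its H3K4me1 was narrower in Doxycycline, with promoter widths of 2.632, 1.831 and 1.603 kb against 3.68, 4.88 and 3.19 kb in DMSO. The groups did not overlap (log2 difference −0.96, exact permutation p = 0.1, adjusted p = 0.937), and 5.93% of genes were lower in this way. H3K4me1 covered 3.85, 2.85 and 2.61 kb of the body in Doxycycline and 4.76, 4.21 and 3.93 kb in DMSO, lower by −0.43 on the log2 scale (exact permutation p = 0.1, adjusted p = 0.916), where 6.86% of genes were lower without overlap. The height did not follow: the H3K4me1 percentile was 65.5, 83.4 and 90.5 in DMSO and 95.6, 73.3 and 75.9 in Doxycycline. Its H3K27ac percentile was 95.5 to 99.4 over the 6 libraries. H3K27me3 was absent from the gene, but covered 18.4 to 20.9 kb of the flanks in the libraries with the longer fragment length estimates and 12.5 to 13.7 kb in the others, and SELENOV, a selenoprotein gene starting 6.66 kb from DLL3, had promoter H3K27me3 in 6 of 6 libraries.

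Over the 8 genes, 7 of 135 combinations of gene, mark and measure did not overlap between treatments, and none passed a test corrected over all genes. For these 7, the share of all genes separated in the same direction was 3.87% to 10.3%, so the count is not read as a result about these genes. In L1CAM H3K27ac and DLL3 H3K4me1, width and body length were measured partly on the same peaks. The last of the 7 was the H3K27ac-covered body of ST8SIA1, which differed by −1.54 on the log2 scale (exact permutation p = 0.1, adjusted p = 0.625), where 10.3% of genes were lower without overlap. This value restates the promoter call above, since the covered length was 0 in all 3 Doxycycline libraries and was the promoter peak itself in DMSO 1 and DMSO 3. Its size depends on the 500 bp added before the logarithm, being −3.38 with 100 bp, and with lists of equal length it was −1.05 and the groups overlapped. limma, fitted across all genes, gave these 7 adjusted p-values of 0.0729 for ST8SIA1 and 0.385 to 0.934 for the others. Without adjustment, 6 of 135 limma tests of a member had a p under 0.05, beside 5.53% of the tests over all genes, and with a replicate block 18 of 135 did, beside 11.5%. With the adjustment 0 did in either fit. All 7 were in H3K4me1 or H3K27ac.

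**Figure D5:**
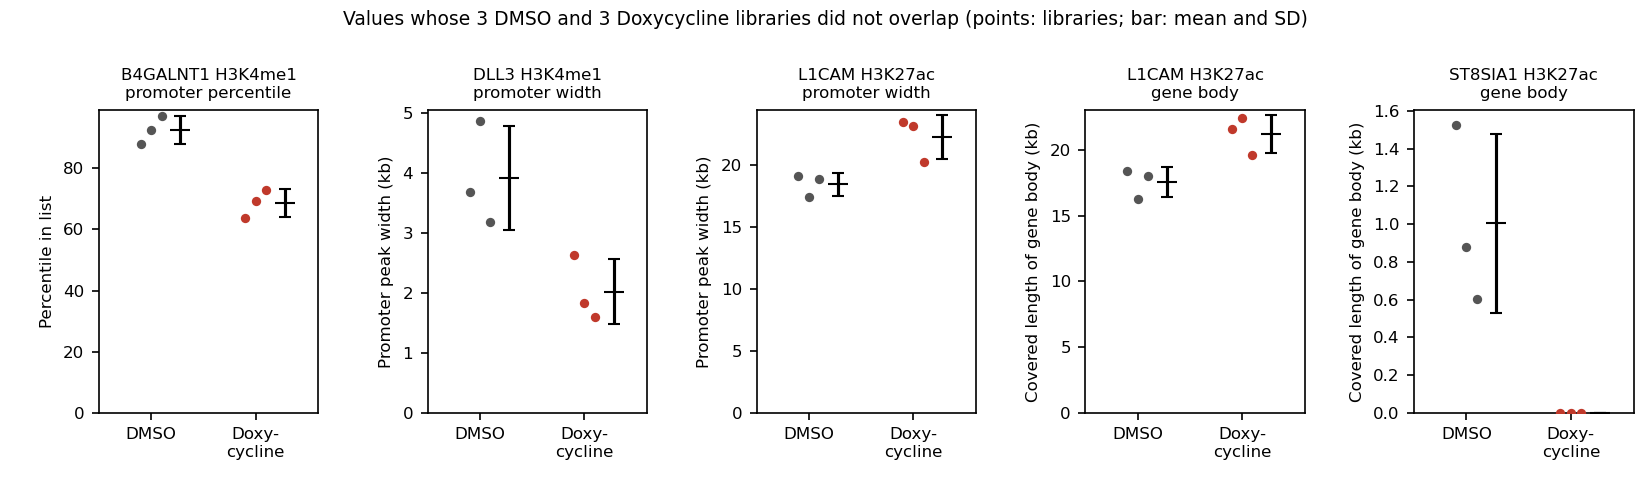
Per-library values (points) with the mean and SD (bar) of 5 of the 7 combinations whose 3 DMSO and 3 Doxycycline libraries did not overlap, as percentile in the list or kb, on axes from 0. H3K4me1 of B4GALNT1 and DLL3 and H3K27ac of ST8SIA1 were lower in Doxycycline, and H3K27ac of L1CAM was higher, at 20.2 to 23.5 kb against 17.4 to 19.1 kb.

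In the remaining measures, 0 members separated. For H3K4me2 the share of all genes that did not overlap in either direction was 11.3% for the percentile, 2.48% for the width, 2.78% for the body and 1.2% for the flanks. For H3K4me3 these shares were 16.9%, 10.2%, 11.4% and 7.51%, and for H3K27me3 7.28%, 0.673%, 1.19% and 0.916%. They were 18.7% for the H3K27ac percentile, 15.6% for the H3K27ac flanks and 9.62% for the H3K4me1 flanks. Promoter peaks gained or lost were also 0 of 8 in H3K4me1 (0.315% of all genes), H3K4me2 (0.03%), H3K4me3 (0.13%) and H3K27me3 (0.19%).

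The median Doxycycline minus DMSO difference over the members was set beside that over all genes. For the H3K27ac width it was 0.21 on the log2 scale over 7 members, beside 0.01 over all genes tested, and for the H3K4me1 width −0.14 beside −0.01. For the H3K4me3 percentile it was −2.28 points over 8 members, beside −0.79. Leaving out 1 library at a time moved these to between 0.0203 and 0.34, between −0.328 and 0.108, and between −1.87 and 0.437, so the direction of the H3K4me1 width and of the H3K4me3 percentile was not stable. The median H3K27me3 width difference over the 4011 genes tested was 0.73 on the log2 scale, and ST8SIA1, the 1 member tested, differed by 0.34. Its H3K27me3 widths were 3.000, 2.303 and 2.536 kb in DMSO and 3.400, 3.680 and 2.852 kb in Doxycycline and overlapped. They too were higher in the libraries with the longer fragment length estimates, at 3.000 to 3.680 kb against 2.303 to 2.852 kb, which was not tested. These are descriptions, and no test was made over the list.

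Of the merged regions that touch the 8 loci, 2 of 106 H3K27ac regions were lost and 1 gained, beside 2.7% and 0.6% of all such regions. For H3K4me1, 2 of 151 were lost (1.45%) and 0 gained (0.313%), and for H3K4me3 1 of 48 was lost (0.893%) and 0 gained (0.45%). None of 112 H3K4me2 regions (0.471%) and none of 105 H3K27me3 regions (0.458%) separated. These shares lie near the background or rest on 1 or 2 regions.

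Other genes of the same pathways and families were read from 6 lists of 55 genes that hold no member. Over these genes and the 5 marks, 1 promoter peak was gained and 0 were lost. In the ganglioside list of 20 enzymes, H3K4me3 was present in all 6 libraries at 19 genes, H3K27ac at 17 and H3K27me3 at 1. That gene was ST8SIA5, a further sialyltransferase, named after its values were seen. Its H3K27me3 percentile was 64.5 to 97.1 and it had no H3K27ac promoter peak, a pattern it shared with ST8SIA1 in Doxycycline. H3K27me3 was present in all 6 libraries at 10 of the 55 list genes. CHL1, DLL4, NOTCH1 and NOTCH2 of the other lists likewise held H3K4me3 and H3K27me3 in all 6 libraries without H3K27ac. No gene of the ganglioside list gained or lost a promoter peak. Of the 9 genes of the Notch list, NOTCH3, a Notch receptor, gained H3K27me3 in 3 of 3 Doxycycline libraries, at percentiles of 80.3, 75.4 and 76.1, with none in DMSO. It was named because it was called, and 0.19% of all genes gained or lost this mark. Its widths were 9868, 10251 and 947 bp, the wide ones in Doxycycline 1 and 2, which had the longer fragment length estimates. DMSO 1 also had a longer estimate and no peak, and the part of that estimate was not tested.

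The promoter profile over the 30 lists was compared between genes by the mean absolute difference of percentiles, absence counted as 0. CD276 and DLL3 were the closest members, at 5.39 points, and ST8SIA1 was the farthest from each of the other 7, at 36.6 to 52.2. Its median distance to all genes was 46.9, so this distance was not particular to the members. For the other 7 that median was 19.0 to 26.7. Among all protein-coding genes at least 100 kb away, the profile nearest to ST8SIA1 was that of SH3RF3 at 6.01, and to L1CAM that of BEGAIN at 2.16. The nearest profiles to the others were GPD1L for ST3GAL5 (10.6), GTSE1 for B4GALNT1 (5.57), DPH3 for GPC2 (6.09), CSTB for NCAM1 (5.12), UBN1 for CD276 (2.88) and TBX3 for DLL3 (3.64). These distances are over 30 lists that share inputs and, within a mark, an antibody.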

How the data were processed

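The data were ChIP-seq peak lists from KELLY cells, 3 libraries for each of 5 histone marks and each treatment, with groups and replicate numbers taken from the labels. The members and the gene lists were chosen with earlier results of these data known. The authors aligned reads to hg38 with Bowtie2, kept mapping quality 30 or more and called peaks per library against an input with MACS2. Per the file headers, broad calling (18 lists: H3K4me1, H3K27ac, H3K27me3) used q 0.05 and joined weaker stretches at q 0.1, and narrow calling (12 lists: H3K4me2, H3K4me3) used p 1e-05, while the methods of the study state one q for every mark. The headers give single-ended reads, while the methods describe sequencing from both ends. The inputs of replicates 1 and 3 had the same read totals. Fold enrichment, as deposited, is the ratio of ChIP signal to the local input level, and the deposited pileup is a signal of fragment coverage. The deposited significance of each peak, as −log10 p-value or −log10 q-value, came from the same caller. Such values depend on depth and input, so fold enrichment was turned into a percentile within each list (100 is the highest). No read counts were used, and the labels do not say that libraries came from separate cultures, so p-values measure the spread between these libraries, which may be technical.

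Chromosomes 1 to 22 and X were used with GENCODE release 44. A peak belonged to a promoter if it shared at least 1 bp with the 1 kb either side of any annotated start site. Covered lengths of the body and of 50 kb flanks were compared as log2(length + 500 bp), which understates changes of short lengths, and widths as log2. Percentiles and widths were tested for genes with a peak in all 6 libraries. The test was an exact permutation, two-sided, over 20 assignments of libraries, adjusted by Benjamini-Hochberg over all genes tested. A value was called when the 3 libraries of one treatment all lay above those of the other, and a peak was called gained or lost when present in 3 of 3 against 0 of 3. Named were the members, list genes gained or lost, the genes of most similar profile at least 100 kb away, and some protein-coding genes starting within 50 kb. HAND2, ST8SIA5, CHL1, DLL4, NOTCH1 and NOTCH2 were named for their values. Tools were python 3.11.15, numpy 2.4.6, pandas 2.3.3, scipy 1.17.1, bedtools 2.31.1, R 4.3.3 and limma 3.58.1. The functions were tested on simulated data with planted changes and checked against bedtools. Same-numbered libraries deviated together (every pair's correlation over 0.1) in 13 of 20 combinations of mark and measure, with correlations of −0.319 to 0.715. The labels do not say that a number marks a shared batch. Motifs, sequences and the closing alternatives used the same windows and tables.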

Additional observations from a re-analysis of the deposited data

How the results depend on the processing

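The counts of calls moved with the libraries and the weak peaks that were kept. For the B4GALNT1 H3K4me1 percentile and L1CAM H3K27ac width and body, the call was missing only in the 2 limma fits. Leaving out a library cannot undo a separation, so those settings could not remove a call. With a q of 0.001 or less, 5 members had an H3K4me1 promoter peak in all DMSO libraries, 0 pairs of member and mark were gained or lost, the H3K27me3 percentile difference was 7.39, and separated pairs fell to 0 lower in width, 1 higher and 0 lower in body. With lists of equal length, 0 pairs were gained or lost, the median H3K27ac percentile difference was 2.59, and 1 pair was lower in body and 2 in the flanks. Requiring 2 of 3 libraries gave 2 members with H3K27me3 in Doxycycline. The 2.5 kb window and the canonical start site each gave 2 pairs wider, and an overlap of at least 200 bp gave 0 narrower. Centred on the median of all genes, the H3K27me3 width difference was −0.391.

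limma gave 0 pairs separated in every measure, and limma with a replicate block, which was added after seeing the data, also gave 0. The replicate block with 8 sign flips cannot give a p under 0.25. The pairs in which all 3 same-numbered differences had one direction numbered 4 higher and 7 lower for the percentile, 8 and 3 for the width, 9 and 8 for the body and 7 and 7 for the flanks. These come from 135 combinations of member, mark and measure. No share over all genes was counted for them, so no excess can be read from them. No call of a single member passed an adjusted test with or without the block.

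Leaving out each library in turn moved the pairs separated to 0 to 4 higher and 2 to 3 lower for the percentile, 1 to 8 and 1 to 3 for the width, 2 to 7 and 2 to 5 for the body, and 0 to 5 in both directions for the flanks, since smaller groups overlap less often. The largest counts came without Doxycycline replicate 3 for width (8) and body (7). No share over all genes was counted for these settings either, so the counts have no background beside them. Members with H3K27me3 in Doxycycline numbered 1 to 2. The median H3K4me1 percentile difference ranged from −3.63 to 5.08 the H3K4me3 percentile difference from −1.87 to 0.437, the H3K27me3 percentile difference from −15.5 to 2.43, the H3K4me1 width difference from −0.328 to 0.108 and the H3K27ac flank difference from −0.0665 to 0.0945, so their directions were not stable. The same held for the H3K4me2 and H3K4me3 medians of width, body and flanks and for the H3K4me1, H3K27ac and H3K27me3 medians of the body. The H3K27ac width difference ranged from 0.0203 to 0.34. The named differences kept their direction under every alternative that gave a value, except that the ST8SIA1 H3K27ac peak had no value in either treatment at a q of 0.001 or less. DLL3 H3K4me1 width was −0.44 there and no longer separated. Calling depth and treatment cannot be told apart in any of these.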
